A study of Danio rerio with 6 samples.

Results

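The circadian clock genes of the zebrafish were examined in larvae that lack the normal zinc finger gene znf469 and in wild type larvae. The members were the genes of the deposited table that carry 1 of 31 listed clock gene symbols, together with every gene whose symbol is cry followed by a digit, of which there were 7. All 38 were found, among 23876 genes in the table. They fall into 4 period genes, 7 cryptochromes, 6 activators of the CLOCK and BMAL type, 5 REV-ERB receptors, 4 ROR receptors, 6 PAR bZIP factors, 3 NFIL3 factors and 3 further repressors (ciarta, bhlhe40 and bhlhe41). The table holds 74 transcripts of these genes, and each gene is given by its transcript with the highest mean.

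The tested larvae were homozygous for a mutation labelled znf469-KO in the sample labels and znf469-4del in the series design, and the others were labelled wt. Whole larvae were taken at 7 days post fertilization from E3 medium at 28.5 °C, and each of 3 znf469-KO and 3 wt libraries was made from the poly(A) RNA of 50 pooled larvae. The sources used here do not give the strain, the light and dark schedule, the hour of collection or whether pools shared a clutch, so that a p-value measures the spread of these pools alone, which may be technical.

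The vertebrate clock is a feedback loop of transcription. CLOCK or NPAS2 pairs with BMAL (the products of the arntl genes) and switches on period, cryptochrome, REV-ERB, PAR bZIP and DEC genes, and period and cryptochrome proteins then repress the same activators. A second loop runs through ROR receptors, which switch on BMAL genes, and REV-ERB receptors, which repress them, and another through PAR bZIP activators and NFIL3 repressors, which share a DNA element. In zebrafish most tissues hold a clock of their own that light can set directly, and per2 and the cryptochrome gene cry1aa are among the genes induced by light there.

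Each value below is a normalized read count, that is the reads of a transcript divided by 1 factor for its library. Summed over all transcripts, the recovered counts of the 6 libraries were 17023269 to 19156581. With 1 transcript per gene they were 8111192 to 9683579. Transcripts of the same gene often had near-equal counts, so the larger sum may count a read more than once. No level is compared between genes, since values are not per length. The targeted gene znf469 had 233, 186 and 209 in znf469-KO replicates 1 to 3, against 296, 198 and 206 in wt replicates 1 to 3. The groups overlapped for it, and its log2 fold change was -0.13 (SE 0.20, Benjamini-Hochberg adjusted p = 0.786 in limma). A mutation need not change the level of its own mRNA, so this value is no check of the labels. Among all 22803 tested genes, znf469-KO replicate 2 and wt replicate 1 were farthest from the other pools of their groups: 14.1% of genes in each lay at least 2-fold from the mean of the other pair, against 6.05% to 10.9% in the other 4 libraries. Markers of skeletal muscle, liver, neurons and photoreceptors were read in both groups, as the label of whole larvae has it.

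Between the groups, 3 of the 38 clock genes rose in znf469-KO larvae and 0 fell, and 35 did not pass the test. The genes that rose were rorcb, a ROR receptor gene, clockb, a CLOCK gene, and nfil3-6, an NFIL3 gene, so each of the 3 sits in a different loop. Over all tested genes 2.31% were called higher and 2.18% lower, 4.49% in all. No clock gene passed as lower in limma. At an unadjusted p under 0.05 in limma there were 7 clock genes, all with a positive log2 fold change. Of all tested genes 18.2% met that limit in either direction, a share close to that of the clock genes. The share of tested genes that met it with a positive log2 fold change alone was not counted. DESeq2 and edgeR also called 0 lower. The median log2 fold change of the 38 was 0.21, against -0.0015 over all tested genes, and 30 of the 38 were above 0, where 49.9% of all genes were. Many clock genes varied together between pools, as given below, so the 30 are not separate results. Some of them also lay close to 0, such as arntl1a (0.00016) and cry4 (0.0037). The groups did not overlap for 4 clock genes, all higher in znf469-KO (rorcb, clockb, nfil3-6 and npas2). Of all tested genes 11.6% did so in that direction, a share close to that of the clock genes. In the lower direction 11.8% of tested genes and 0 clock genes did.

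**Figure D1:**
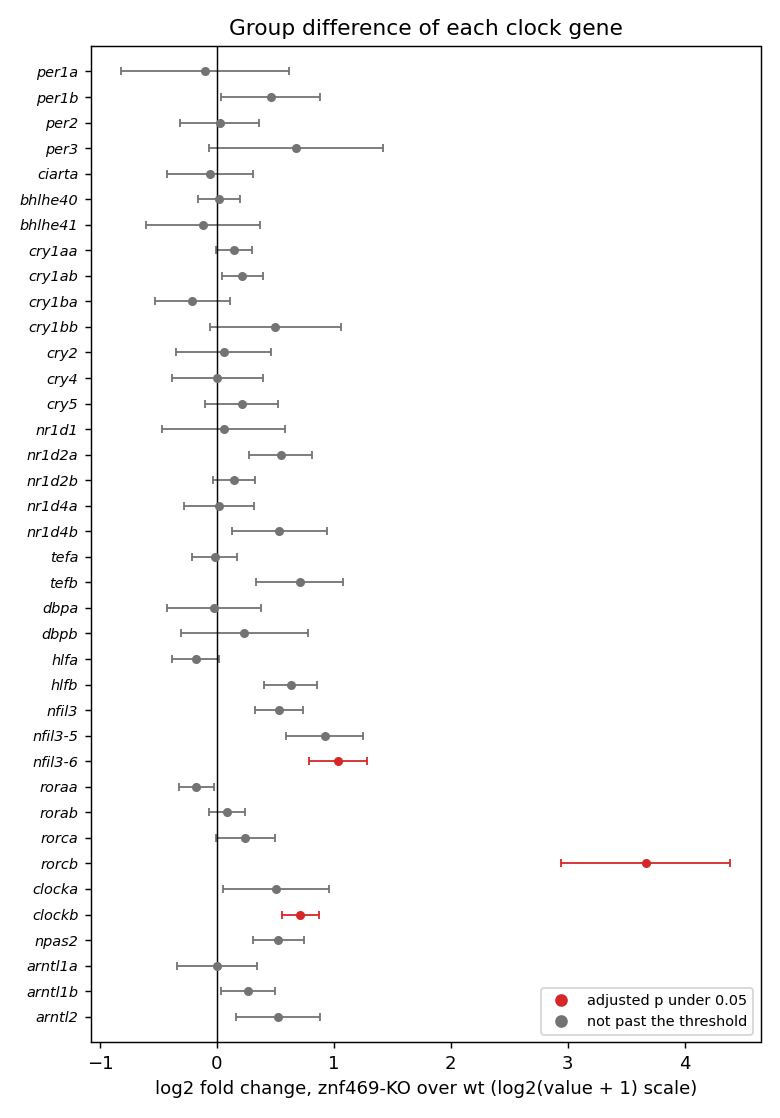
Log2 fold change of each of the 38 clock genes, znf469-KO over wt, on the log2(value + 1) scale, with genes ordered by role. Points are estimates from 3 pools per group, bars are 1 SE either side, and the genes in red (nfil3-6, rorcb and clockb) are the 3 past an adjusted p of 0.05.

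The gene with the largest log2 fold change of the 38 was rorcb, a zebrafish ROR receptor gene. It had 73.1, 18.3 and 39.2 in znf469-KO replicates 1 to 3, against 4.72, 3.92 and 0 in wt replicates 1 to 3. These values rest on 78, 17 and 38 reads in the znf469-KO pools and on 5, 4 and 0 reads in the wt pools, and a count of 0 in wt replicate 3 allows up to 3 reads, or a value of 2.97. The lowest znf469-KO pool was thus above the highest wt pool, at a low level throughout. The means were 43.5 ± 27.6 in znf469-KO and 2.88 ± 2.53 in wt (SD, n = 3 each), and the log2 fold change was 3.66 (SE 0.72, Benjamini-Hochberg adjusted p = 0.0199 in limma). That size depends on the pseudocount, and was 4.07 with 0.5 and 2.51 with 5 in place of 1. In limma the call ended without znf469-KO replicate 1 or 3 or wt replicate 2 (adjusted p = 0.0853, 0.0809 and 0.0516), and in limma-voom on the recovered reads (adjusted p = 0.0560). In the authors' deposited table its log2 fold change was 3.91.

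The other ROR genes did not pass. The copy rorca had 469, 236 and 399 in znf469-KO, against 253, 352 and 300 in wt, so that its groups overlapped. The genes roraa and rorab, counterparts of RORA, were even across pools, with 641, 667 and 678 for roraa in znf469-KO, against 674, 715 and 867 in wt. For rorab the values were 1564, 1343 and 1415 in znf469-KO, against 1172, 1379 and 1540 in wt, a log2 fold change of 0.09 (SE 0.16, Benjamini-Hochberg adjusted p = 0.833 in limma). Reads of near-identical copies could be split between such genes, and the sources used here do not say how they were counted.

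A minor transcript of roraa did not share this evenness. The transcript NM_001110167.1, whose mean was 3.85% of that of the main transcript, had 45.9, 12.9 and 45.3 in znf469-KO, against 44.4, 10.8 and 3.96 in wt. It was high in znf469-KO replicates 1 and 3 and in wt replicate 1, and lower in the other 3 pools. It was picked after its values were seen and was not tested.

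Among the activators, clockb rose. It had 733, 614 and 674 in znf469-KO replicates 1 to 3, against 463, 405 and 367 in wt replicates 1 to 3. The pools were close within each group, with means of 674 ± 59.2 in znf469-KO and 412 ± 48.1 in wt (SD, n = 3 each), a log2 fold change of 0.71 (SE 0.16, Benjamini-Hochberg adjusted p = 0.0314 in limma). Its other transcript, at 59.2% of the mean of the main transcript, had 470, 310 and 412 in znf469-KO, against 309, 238 and 188 in wt. The estimate stayed between 0.63 and 0.80 with each library left out, but the call in limma ended without znf469-KO replicate 1 or 3 or wt replicate 2 or 3 (adjusted p = 0.135, 0.137, 0.170 and 0.118), and with summed transcripts (0.0633) or total scaling (0.0635).

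The other activator genes had smaller or less even differences than clockb. NPAS2, which can take the place of CLOCK, is encoded by npas2, and this gene had 139, 113 and 133 in znf469-KO, against 79.3, 109 and 80.2 in wt. Its groups did not overlap, by a narrow gap, and it did not pass (log2 fold change 0.53, SE 0.22, Benjamini-Hochberg adjusted p = 0.235 in limma). This holds for its main transcript only. In its other transcripts, at 34.9% to 42.3% of the mean of the main one, the groups overlapped. In each of them znf469-KO replicate 2 was below wt replicate 1, as with 32.3 against 36.8 in NM_178299.1. The second CLOCK gene clocka had 91.8, 32.3 and 64.9 in znf469-KO, against 70.8, 36.3 and 25.7 in wt, and was lowest in znf469-KO replicate 2 and wt replicates 2 and 3. Of the BMAL genes, arntl1a had 267, 282 and 145 in znf469-KO, against 130, 276 and 305 in wt. It was low in znf469-KO replicate 3 and in wt replicate 1 only, and its log2 fold change was 0.00016 (SE 0.35, Benjamini-Hochberg adjusted p = 0.99986 in limma), a sign that turned negative without znf469-KO replicate 1 or 2 or wt replicate 1. The second BMAL1 gene arntl1b had 212, 158 and 164 in znf469-KO, against 108, 174 and 168 in wt, with wt replicate 1 lowest. For the BMAL2 gene arntl2 the values were 23.4, 51.7 and 38.1 in znf469-KO, against 28.3, 25.5 and 20.8 in wt, and the groups overlapped.

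The third gene that rose, nfil3-6, belongs to a family whose mammalian member NFIL3 represses genes that PAR bZIP factors switch on. It had 1386, 1054 and 1924 in znf469-KO replicates 1 to 3, against 907, 530 and 679 in wt replicates 1 to 3. All znf469-KO pools were above all wt pools, with means of 1455 ± 439 in znf469-KO and 705 ± 190 in wt (SD, n = 3 each), and the log2 fold change was 1.03 (SE 0.25, Benjamini-Hochberg adjusted p = 0.0459 in limma). This call lay close to the threshold. It ended without znf469-KO replicate 1 or 3 or wt replicate 2 or 3 (adjusted p = 0.124, 0.175, 0.221 and 0.118), under TMM or total scaling (0.0583 and 0.0938), with edgeR (0.0582), with limma-voom (0.0567) and with summed transcripts (0.0605).

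Its relatives had positive log2 fold changes that did not pass. The gene nfil3-5 had 1610, 1858 and 987 in znf469-KO, against 448, 853 and 1137 in wt. Here znf469-KO replicate 3 was below wt replicate 3, so the groups overlapped, and the log2 fold change was 0.92 (SE 0.33, Benjamini-Hochberg adjusted p = 0.165 in limma). The gene nfil3 had 537, 509 and 614 in znf469-KO, against 297, 362 and 514 in wt, and the lowest znf469-KO pool was just under the highest wt pool.

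**Figure D2:**
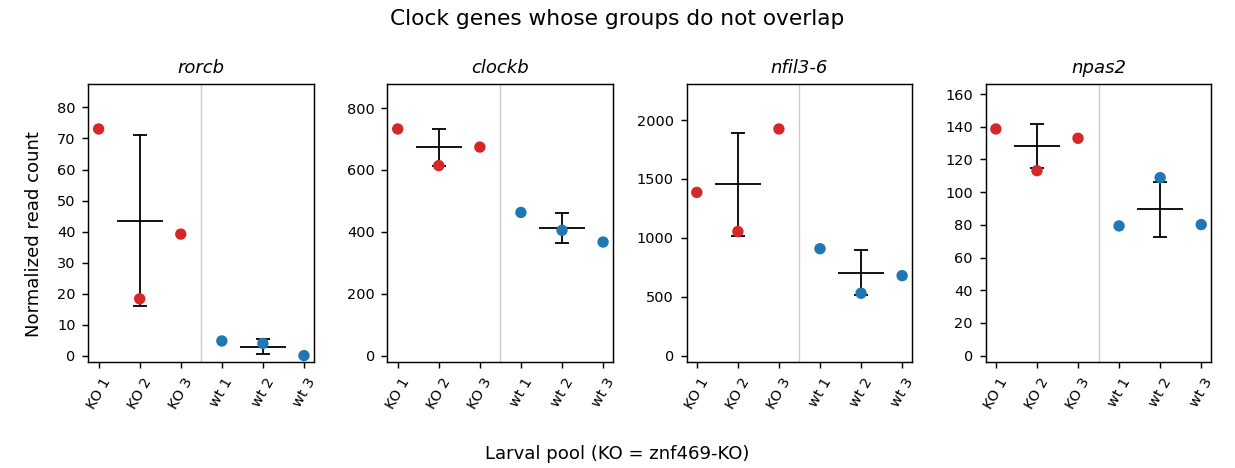
Normalized read counts of the 4 clock genes whose groups did not overlap, in each znf469-KO (KO, red) and wt (blue) pool, with the group mean as a horizontal line and 1 SD as bars (n = 3 each). All KO points lie above all wt points, and npas2, unlike the other 3, did not pass the test. Each gene is shown by its main transcript, and the groups of npas2 overlapped in its other transcripts.

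Many clock genes spanned a wide range between pools of the same genotype. The log2 range from the lowest to the highest pool had a median over the 38 clock genes of 0.93 in znf469-KO and 1.07 in wt, against 0.59 in znf469-KO and 0.55 in wt over all tested genes. In znf469-KO 17 clock genes spanned 2-fold or more, where 24.3% of tested genes did, and in wt 20 did, where 23.7% of tested genes did. Among the 16891 genes with a mean at least as high as that of the lowest clock gene, these shares were 13.8% in znf469-KO and 12.7% in wt. The span was 2-fold or more in both groups for 15 clock genes and in neither for 16.

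**Figure D3:**
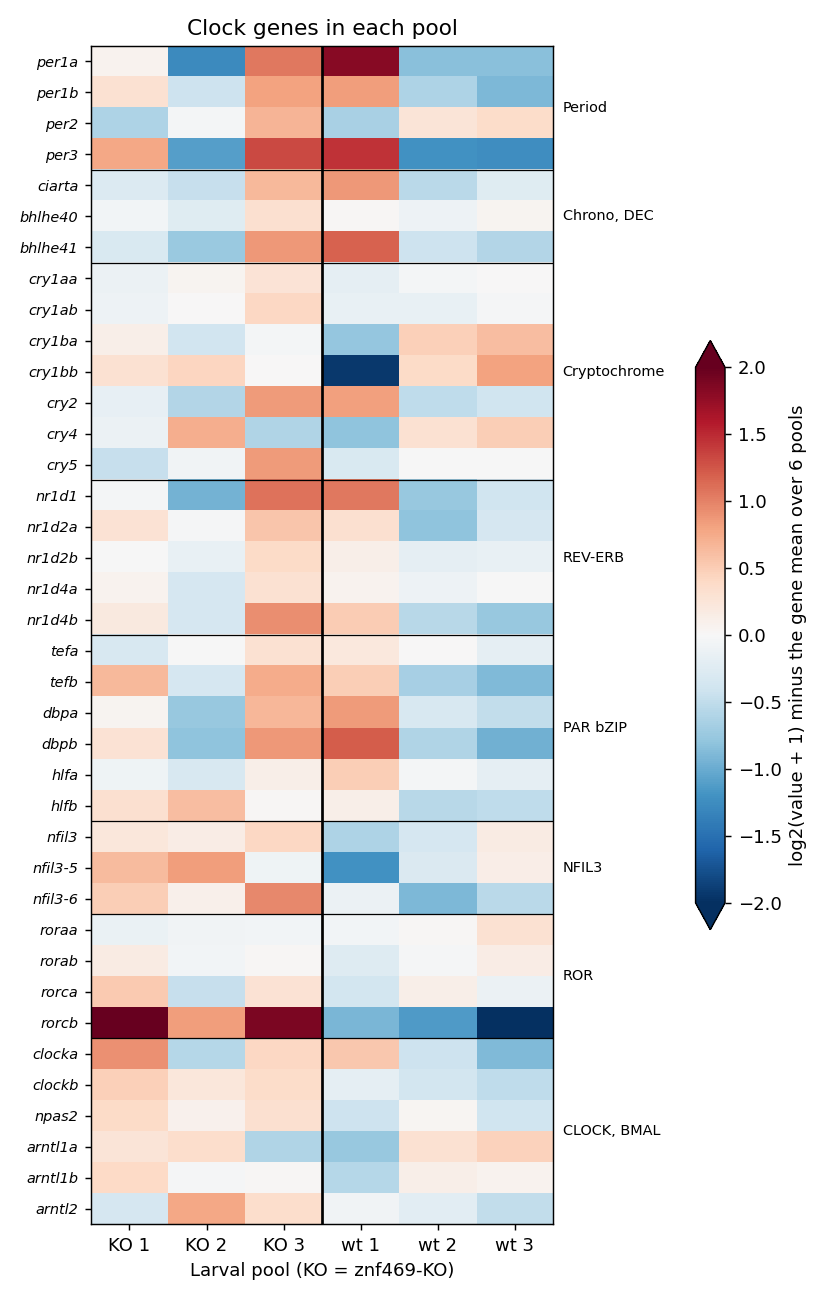
Each of the 38 clock genes in each pool, as log2(value + 1) minus the mean of that gene over the 6 pools, with KO (znf469-KO) pools on the left and wt pools on the right and genes grouped by role. Red is above and blue below the mean of the gene, colours saturate at 2 in either direction (rorcb passes this in 2 pools), and most period, PAR bZIP and REV-ERB genes are red in KO 3 and wt 1 and blue in KO 2, wt 2 and wt 3.

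Of the period genes, whose proteins are core repressors of the loop, per1a and per3 had the widest spans. The transcript of per1a had 334, 131 and 663 in znf469-KO replicates 1 to 3, against 1134, 178 and 178 in wt replicates 1 to 3. The highest pool was 5.04 times the lowest in znf469-KO and 6.39 times the lowest in wt. For per3 the values were 354, 95.9 and 518 in znf469-KO, against 564, 88.3 and 86.1 in wt. Both genes were high in znf469-KO replicate 3 and wt replicate 1, intermediate in znf469-KO replicate 1 and low in the other 3 pools. The gene per1b followed the same order of pools in znf469-KO, at 1961, 1184 and 2753, against 2814, 1027 and 850 in wt, and its log2 fold change of 0.46 did not pass (SE 0.42, Benjamini-Hochberg adjusted p = 0.626 in limma).

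The light-induced gene per2 had another order. It had 472, 703 and 1163 in znf469-KO, against 460, 861 and 927 in wt, so that wt replicate 1, high for the other period genes, was the lowest pool for per2. Its log2 fold change was 0.02 (SE 0.34, Benjamini-Hochberg adjusted p = 0.982 in limma), and its sign turned with single libraries left out. The gene cry1aa, also induced by light, spanned less than 2-fold in each group, with 1389, 1567 and 1810 in znf469-KO, against 1331, 1461 and 1503 in wt. Another such gene, cry5, encodes a DNA repair photolyase and had 87.1, 114 and 216 in znf469-KO, against 97.3, 120 and 119 in wt. For these 3 genes znf469-KO replicate 3 was the highest of the 6 pools. It was also the highest pool for clock genes of other roles, such as nr1d2a, tefb, nfil3-6 and bhlhe40.

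The cryptochromes did not move as a block. In zebrafish, cry1aa, cry1ab, cry1ba and cry1bb encode cryptochromes that repress CLOCK and BMAL, and cry1ab, like cry1aa, spanned less than 2-fold in each group, at 353, 380 and 507 in znf469-KO, against 340, 343 and 371 in wt. By contrast, cry1bb had 446, 483 and 362 in znf469-KO, against 93.5, 467 and 628 in wt. A single pool, wt replicate 1, was far below the other 5, and the highest wt pool was 6.72 times the lowest. The related cry1ba had 3026, 2146 and 2717 in znf469-KO, against 1633, 3886 and 4299 in wt. It was also lowest in wt replicate 1, and its log2 fold change was -0.21 (SE 0.32, Benjamini-Hochberg adjusted p = 0.793 in limma), a sign that turned without wt replicate 3.

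The remaining cryptochromes, which are not known as repressors of CLOCK and BMAL in zebrafish, went opposite ways. The gene cry2, also called cry3 in the reference table, had 338, 251 and 683 in znf469-KO, against 672, 266 and 287 in wt, high in znf469-KO replicate 3 and wt replicate 1 as per1a and per3 were. The gene cry4 had 211, 376 and 149 in znf469-KO, against 129, 282 and 322 in wt. It was thus low in znf469-KO replicate 3 and wt replicate 1, the pools where cry2 was high.

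The REV-ERB receptors, which repress BMAL genes, were led in span by nr1d1. It had 1525, 814 and 3318 in znf469-KO, against 3277, 932 and 1193 in wt. It was more than 2-fold higher in znf469-KO replicate 3 and wt replicate 1 than in any other pool, the pools where arntl1a was low. The BMAL gene arntl1b was low in wt replicate 1 (108) but not set apart in znf469-KO replicate 3 (164, against 158 in replicate 2). The gene arntl2 was low in neither pool (38.1 in znf469-KO replicate 3 and 28.3 in wt replicate 1). A link between these genes was not tested. The small member nr1d4b had 77.8, 53.9 and 131 in znf469-KO, against 97.3, 46.1 and 39.6 in wt. For nr1d2a the values were 3727, 3001 and 4509 in znf469-KO, against 3827, 1752 and 2426 in wt, with a log2 fold change of 0.54 (SE 0.27, Benjamini-Hochberg adjusted p = 0.328 in limma). The genes nr1d2b and nr1d4a spanned less than 2-fold in each group.

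The PAR bZIP genes, whose proteins carry the rhythm of the loop to output genes, included dbpb, dbpa and tefb with the same 3 lowest pools. The gene dbpb had 490, 231 and 730 in znf469-KO, against 935, 265 and 205 in wt. For dbpa the values were 189, 108 and 289 in znf469-KO, against 329, 146 and 130 in wt, and for tefb 1284, 649 and 1364 in znf469-KO, against 1151, 513 and 441 in wt. In each of these genes znf469-KO replicate 2 and wt replicates 2 and 3 held the 3 lowest values, while the highest was wt replicate 1 for dbpb and dbpa and znf469-KO replicate 3 for tefb. The second TEF gene tefa was more even, with 818, 1014 and 1269 in znf469-KO, against 1182, 1031 and 902 in wt, and its log2 fold change was -0.02 (SE 0.19, Benjamini-Hochberg adjusted p = 0.970 in limma), with a sign that turned with single libraries left out. The gene hlfa spanned less than 2-fold in each group, and hlfb had 494, 611 and 402 in znf469-KO, against 432, 270 and 278 in wt. The wt pools of hlfb reached into the range of the znf469-KO pools through wt replicate 1 alone.

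Among the other repressors, bhlhe41, the DEC2 gene, and ciarta, the CHRONO gene, spanned 2-fold or more within both groups, while bhlhe40, the DEC1 gene, spanned less than 2-fold in each. The transcript of bhlhe41 had 214, 157 and 484 in znf469-KO, against 601, 199 and 175 in wt. That of ciarta had 536, 468 and 1006 in znf469-KO, against 1182, 442 and 544 in wt. For both, znf469-KO replicate 3 and wt replicate 1 were the high pools, and the groups overlapped. The values of bhlhe40 were 3633, 3172 and 4705 in znf469-KO, against 3804, 3501 and 3894 in wt, with a log2 fold change of 0.02 (SE 0.18, Benjamini-Hochberg adjusted p = 0.968 in limma).

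**Figure D4:**
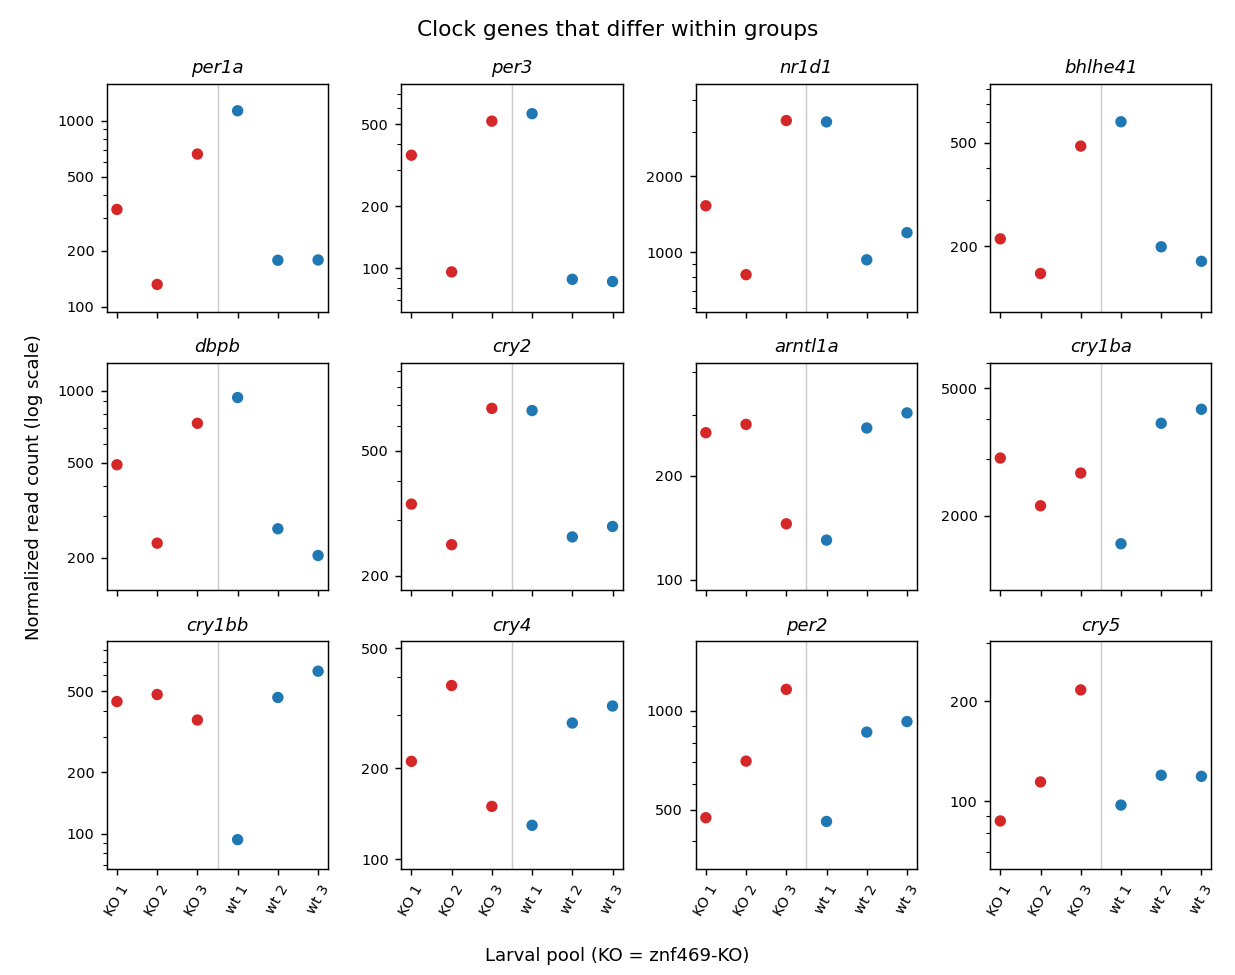
Normalized read counts (log scale) of 12 clock genes in each znf469-KO (KO, red) and wt (blue) pool. The first 6 genes, from per1a to cry2, are high in KO 3 and wt 1, arntl1a and cry4 are low in those pools, cry1ba and cry1bb are lowest in wt 1, and per2 and cry5 are highest in KO 3.

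The roles can be set side by side by pool. As log2(value + 1) relative to the mean of each gene over the 6 pools, the period genes had medians of 0.19, -0.76 and 0.93 in znf469-KO replicates 1 to 3, against 1.14, -0.73 and -0.87 in wt replicates 1 to 3. The PAR bZIP genes had medians of 0.17, -0.32 and 0.48 in znf469-KO, against 0.49, -0.44 and -0.50 in wt, and the REV-ERB genes 0.07, -0.33 and 0.56 in znf469-KO, against 0.32, -0.55 and -0.33 in wt. In these 3 roles the medians were above 0 in znf469-KO replicates 1 and 3 and wt replicate 1 and below 0 in the other 3 pools. The repressors ciarta, bhlhe40 and bhlhe41 had medians of -0.27, -0.46 and 0.64 in znf469-KO, against 0.87, -0.41 and -0.24 in wt. The cryptochromes did not follow the period genes, with -0.11, 0.0062 and 0.27 in znf469-KO, against -0.30, -0.0039 and 0.00032 in wt. The medians of the activators were 0.39, 0.16 and 0.33 in znf469-KO, against -0.30, -0.09 and -0.45 in wt. The medians of all znf469-KO pools were thus above those of all wt pools in this role. Taken singly and by main transcript, only clockb and npas2 of the activators had groups that did not overlap, and clocka, arntl1a, arntl1b and arntl2 overlapped. The NFIL3 genes, at 0.49, 0.15 and 0.42 in znf469-KO, against -0.62, -0.34 and 0.13 in wt, had the same order of groups with a narrow gap. The ROR genes had 0.35, -0.07 and 0.16 in znf469-KO, against -0.31, 0.0030 and 0.01 in wt, and here the groups overlapped. These medians are descriptions over 3 to 7 genes each and carry no test.

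The distance of each pool from the mean of the other pair of its group shows how much of the clock set took part. In znf469-KO replicate 2, 9 clock genes were 2-fold or more below (per1a, per3, clocka, nr1d1, rorcb, tefb, dbpa, dbpb and bhlhe41), where 7.98% of tested genes were, and 1 was as far above (cry4), where 6.08% of tested genes were. In znf469-KO replicate 3, 11 were 2-fold or more above, where 3.89% of tested genes were, and 0 below, where 3.31% were. In wt replicate 1, 13 were 2-fold or more above, where 10.4% of tested genes were, and 5 were below (arntl1a, nfil3-5, cry1ba, cry1bb and cry4), where 3.6% were. Each of the 9 low genes of znf469-KO replicate 2, and 9 of the 11 high genes of znf469-KO replicate 3, was among the 13 high genes of wt replicate 1. For rorcb, a low gene of znf469-KO replicate 2, this rests on 5 reads in wt replicate 1, against 4 and 0 in wt replicates 2 and 3. Its distance in wt thus comes from the count of 0. The remaining pools had few such genes: znf469-KO replicate 1 had 1 above and 0 below (3.36% and 3.91% of tested genes, 7.27% in either direction, against 7.19% for znf469-KO replicate 3), wt replicate 2 had 1 above and 3 below (2.49% and 3.56%), and wt replicate 3 had 1 above and 4 below (2.64% and 8.21%). The deviations of znf469-KO replicate 2 and wt replicate 1 share no library, and across the 38 clock genes their Pearson r was -0.80, against -0.32 across all tested genes. For znf469-KO replicate 3 and wt replicate 1 it was 0.74 across the clock genes, against 0.28 across all tested genes. For znf469-KO replicate 1 and wt replicate 1 it was 0.18 across the clock genes, against 0.14 across all tested genes. Each of these uses wt replicate 1, and the deviations of pools of the same group depend on one another, so these are not separate results. Genes of a library are not independent replicates, and these coefficients are descriptions. The shares and coefficients over all tested genes were not matched by level. They include genes with means below 23.2, that of the lowest clock gene, whose distances hold more counting noise.

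**Figure D5:**
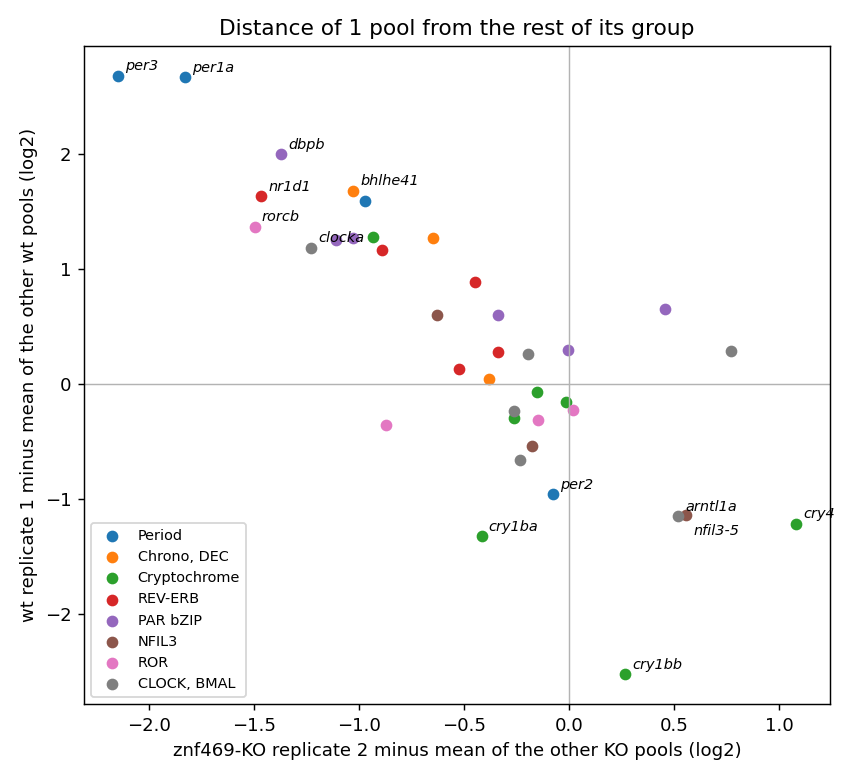
Log2 distance of znf469-KO replicate 2 from the mean of the other znf469-KO pools (horizontal) and of wt replicate 1 from the mean of the other wt pools (vertical), 1 point per clock gene, coloured by role. The points run from per1a and per3 at the upper left to cry4 and cry1bb at the lower right, with r = -0.80 over 38 genes.

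The count of clock genes called higher moved with single pools. Without znf469-KO replicate 2 the same 3 genes were called, where 1.84% of tested genes were called higher. Without wt replicate 1, 5 clock genes were called higher, where 3.88% of tested genes were. These were the same 3 with hlfb (log2 fold change 0.85, SE 0.20, Benjamini-Hochberg adjusted p = 0.0343 in limma) and tefb (1.13, SE 0.29, adjusted p = 0.0445). Without znf469-KO replicate 1 or 3 or wt replicate 2 the count in limma was 0, where 1.15%, 0.679% and 0.683% of tested genes were called higher. Without wt replicate 3 it was 1 (rorcb), where 1.13% of tested genes were. Without both znf469-KO replicate 2 and wt replicate 1, a setting chosen with the data known, 15 clock genes were called higher and 2 lower (cry1ba and cry4), where 11.8% of tested genes were called higher and 11.8% lower. The 15 included per3 at 2.28, tefb at 1.47 and dbpb at 1.36, next to clockb at 0.86 and nfil3-6 at 1.44. With all pools kept, per3 was at 0.68 (SE 0.74, Benjamini-Hochberg adjusted p = 0.692 in limma) and did not pass. The dropped pair held the lowest znf469-KO value of per3 (95.9) and its highest wt value (564), so the choice of pools widened its difference. The same held for every other gene called higher in that fit except hlfb, and so for clockb and nfil3-6 as for tefb and dbpb. The pools left in the fit without that pair were those where per3 stood at 354 and 518 in znf469-KO, against 88.3 and 86.1 in wt. The part of the spread between pools in the calls of that fit cannot be told apart from genotype.

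Genes around the clock were read from 2 further lists. Among 25 regulators of clock proteins that were found (of 27 listed), 2 rose and 0 fell: timeless, a partner of the replication fork that bears the name of a fly clock gene, with 485, 428 and 571 in znf469-KO, against 296, 264 and 302 in wt (log2 fold change 0.78, SE 0.17, Benjamini-Hochberg adjusted p = 0.0279 in limma), and sirt1, a deacetylase, with 722, 1044 and 766 in znf469-KO, against 412, 498 and 545 in wt (0.79, SE 0.19, adjusted p = 0.0422). The groups did not overlap for either gene. The kinase genes csnk1da, csnk1db and csnk1e, which phosphorylate period proteins, did not pass. Of 20 clock outputs and light-induced genes found (of 21 listed), 2 rose and 0 fell: fkbp5, with 4232, 7631 and 4955 in znf469-KO, against 2892, 757 and 1270 in wt (1.95, SE 0.41, Benjamini-Hochberg adjusted p = 0.0269 in limma), and klf9, with 2244, 1869 and 3006 in znf469-KO, against 1623, 938 and 1088 in wt (0.98, SE 0.24, adjusted p = 0.0462). Both genes are also known targets of the glucocorticoid receptor. Over all tested genes 2.31% were called higher and 2.18% lower, and the median log2 fold change was 0.15 in each list, against -0.0015 over all tested genes.

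An output gene and a regulator gene that differed within wt are named after their values were seen. The nocturnin gene nocta had 277, 265 and 336 in znf469-KO, against 438, 98.1 and 114 in wt. Its relative noctb, also named with its values known, did not share this order. It had 67.5, 75.4 and 46.4 in znf469-KO, against 82.2, 139 and 109 in wt, with wt replicate 1 the lowest wt pool. All znf469-KO pools of noctb were below all wt pools, and it did not pass (log2 fold change -0.79, SE 0.28, Benjamini-Hochberg adjusted p = 0.159 in limma). The CLOCK-binding repressor gene cipcb had 115, 77.6 and 158 in znf469-KO, against 163, 33.3 and 18.8 in wt. In nocta and cipcb, wt replicate 1 was the highest of the 6 pools and wt replicates 2 and 3 were among the lowest. Neither of them passed the test between groups.

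Whole larvae hold many tissues with clocks, and in such bulk samples fewer cells of a type and less RNA per cell cannot be told apart. The summed level of 16 photoreceptor and pineal markers, tissues with a strong clock, was 40606 to 63164 in znf469-KO, against 59509 to 89483 in wt, with 0 of 16 called higher, 1 called lower (rcvrna) and 0 listed at 0. High genes such as opn1sw1 (9972 to 16090 in znf469-KO, against 15310 to 24582 in wt) carry this sum. Low ones such as exorh (31.95 to 67.9, against 41.5 to 65.7) and aanat2 (17.5 to 36.6, against 17.9 to 45.5) add little. The sum is thus no measure of the pineal gland. That of 12 skeletal muscle markers was 407269 to 579177 in znf469-KO, against 615867 to 776182 in wt, with 0 of 12 called higher, 3 called lower (acta1a, acta1b and casq1a) and 0 listed at 0. Sums of 10 liver markers (37502 to 48985 in znf469-KO, against 36809 to 44256 in wt) and of 8 neuronal markers (20448 to 22677 in znf469-KO, against 19224 to 26392 in wt) overlapped between the groups, with 2 liver markers (fabp10a and tfa) and 0 neuronal markers called lower, 0 of either called higher and 0 listed at 0. Over all tested genes 2.18% were called lower and 2.31% higher. The part of tissue make-up in the clock gene results was not tested.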

How the data were processed

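Zebrafish larval RNA was sequenced as paired 150 bp reads. The deposited table gives 1 signal value per RefSeq transcript and library. Within a library, all values (100%, tolerance 0.001) were whole multiples of its lowest value above 0, and the deposited signal was therefore read as whole read counts over 1 factor per library. In wt replicate 3 that step was 0.990, close to 1 and harder to tell from rounding. The submitters' processing notes name the build GRCz11, and no aligner, counter or strand setting is named in the sources used here. A log2 fold change with its p-value and q-value was deposited by the authors for each transcript, from a test the headers do not name.

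Each gene was represented by its transcript of highest mean over the 6 libraries. The main test was limma (version 3.58.1) on log2(value + 1) with an intensity trend, kept to genes that reached 1 in at least 3 libraries, with Benjamini-Hochberg adjustment over the 22803 genes left and calls at an adjusted p-value under 0.05. Fold changes on this scale understate those of low genes. All 38 clock genes passed the filter. As alternatives, edgeR (4.0.16), DESeq2 (1.42.0) and limma-voom were run on the recovered read counts, besides other pseudocounts, filters, scalings, a replicate block and fits with libraries left out. The fits were tested on simulated data with the same dispersion for every gene and no outlying pools. These data differ from that setting, so the simulation does not bear on the calls given here. The members and lists were chosen with earlier results of these data known. Group differences are given for members past the threshold, for the member of highest mean in each role (CLOCK and BMAL types apart), and for per2 and znf469, and npas2 was added after its values were seen. Of the other lists, members past the threshold are named, and the csnk1 genes, nocta, noctb and cipcb were named after their values were seen. No sequences are shown.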

Additional observations from a re-analysis of the deposited data

How the results depend on the processing

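The count of clock genes called higher was 3, with 0 lower. It was 2 with TMM scaling or edgeR, and 1 with summed transcripts, total scaling or limma-voom. It was 0 to 5 when a single pool was dropped. When znf469-KO replicate 2 and wt replicate 1 were dropped together it was 15, where 2 were lower. Calls over all genes numbered 1023, 253 to 1405 with a single pool dropped and 5191 with that pair dropped. Log2 fold changes near 0 changed sign. That of arntl1a was -0.00059 with a pseudocount of 5, -0.0097 with summed transcripts, -0.027 with edgeR, -0.031 with DESeq2 and -0.55 with the pair dropped, and -0.38 to 0.30 with 1 left out. With 1 left out the others were -0.020 to 0.18 for rorab, -0.18 to 0.14 for tefa, -0.14 to 0.15 for bhlhe40, -0.65 to 0.047 for cry1ba, -0.31 to 0.34 for per2 and -0.24 to 0.048 for znf469. With the pair dropped tefa was at 0.080, per2 at -0.27 and znf469 at 0.13. The causes were not tested. For the replicate block, same-numbered pools deviated together in replicates 1 and 2 (r = 0.14 and 0.13) but not in replicate 3 (r = -0.26). Some differently numbered pools had larger r: 0.283 for znf469-KO replicate 3 with wt replicate 1, and 0.276 for znf469-KO replicate 2 with wt replicate 3. The rest of the differently numbered pairs were negative. With 3 pools per group these coefficients cannot decide whether the numbers pair the samples, which the sources used here do not say. With the block, 3 clock genes were higher and 980 genes were called. The wt values of rorcb rest on 0 to 5 reads.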
